A study of Mus musculus with 4 samples.

Results

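The annexin family was examined as 8 genes chosen by symbol, Anxa1, Anxa2, Anxa3, Anxa4, Anxa5, Anxa6, Anxa7 and Anxa11, of 29814 gene symbols listed for all 4 libraries. Single-cell RNA-seq (10x Genomics) had been made from CD45+ leukocytes of tumor-free mouse bone marrow and of LLC tumors, where LLC is the Lewis lung carcinoma cell line. The KO mice were S100a8fl/fl Vav-Cre+/-, in which Cre driven by the blood-lineage Vav promoter deletes S100a8 in hematopoietic cells. The WT mice were S100a8fl/fl Vav-Cre-/-, so every group carried the floxed allele and the control had no Cre. Each of the 4 groups (KO or WT, marrow or tumor) is 1 library of cells pooled from 3 mice, so no difference below has a replicate check and no test was made. The 95% intervals printed here cover counting error only.

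Annexins are proteins that bind acidic phospholipids of membranes when calcium rises, through a conserved core of repeats and a variable amino-terminal tail. Several annexin tails bind S100 proteins: annexin A2 pairs with S100A10, annexin A1 with S100A11 and annexin A11 with S100A6. In leukocytes annexin A1 is abundant in neutrophil granules and cytosol and signals through formyl peptide receptors, and annexin A5 is the protein used as a probe of exposed phosphatidylserine.

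On the GRCm38 build, in the GENCODE M21 annotation, the 8 protein-coding genes lie on 7 chromosomes. Anxa1 (ENSMUSG00000024659) spans chr19:20373428-20390944, Anxa2 (ENSMUSG00000032231) chr9:69453620-69491795, Anxa3 (ENSMUSG00000029484) chr5:96793339-96845966 and Anxa4 (ENSMUSG00000029994) chr6:86736840-86793584. Anxa5 (ENSMUSG00000027712) spans chr3:36448923-36475894, Anxa6 (ENSMUSG00000018340) chr11:54979108-55033445, Anxa7 (ENSMUSG00000021814) chr14:20455260-20480133 and Anxa11 (ENSMUSG00000021866) chr14:25842156-25886804.

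RefSeq promoter sequence (GRCm38.p6) was held for 6 of the 8 genes. The 250 bases before the start were searched on both strands for TATAAA and for the GC box GGGCGG, and the matches are in capitals below. The sequences of Anxa1, Anxa2 and Anxa11 are shown because the marrow comparison turns on these 3 genes. In GENCODE all 250 bases of the Anxa1 window, 63 of the Anxa2 window and 0 of the Anxa11 window lie in an annotated exon. For Anxa1 and Anxa2 only the 30 bases around the TATAAA match are therefore given.
Anxa1, chr19:20390687-20390716, minus strand: tcagttcatatccTATAAAatcaggagtcc
Anxa2, chr9:69453653-69453682, plus strand: aggatgGGGCGGgTATAAAagccccaccca
Anxa11, chr14:25841905-25842154, plus strand: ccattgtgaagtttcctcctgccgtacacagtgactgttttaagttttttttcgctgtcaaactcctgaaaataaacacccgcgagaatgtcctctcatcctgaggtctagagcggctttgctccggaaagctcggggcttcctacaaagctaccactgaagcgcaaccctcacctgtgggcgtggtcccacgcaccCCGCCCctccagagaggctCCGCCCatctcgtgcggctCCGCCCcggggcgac
The Anxa1 window had 1 TATAAA beginning 32 bases before the RefSeq start, no GC box and 2 CpG dinucleotides. The Anxa2 window had 1 TATAAA 17 bases before the start, 3 GC boxes and 9 CpG. The Anxa11 window had no TATAAA, 3 GC boxes and 17 CpG. Of 32851 RefSeq promoters cut to the same 250 bases, 12.4% held TATAAA and 32.7% held a GC box, and the median number of CpG was 6. Anxa1 thus had a CpG-poor window with a TATAAA and Anxa11 a CpG-rich one without it. A match is a description of the letters only.

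After filtering, 9844 KO and 7433 WT bone marrow cells and 10322 KO and 10474 WT tumor cells were kept, with median depths from 2236 to 7860 UMIs (counted transcript molecules) per cell. S100a8 itself had 7 UMIs over all barcodes of the KO marrow library against 2301866 in WT, and 85 against 14244 in the tumor libraries, in the direction of the labels. Clusters were named only as "X-like" from fixed marker lists, and the annexins and their partners took no part in the clustering. The libraries shared 16 to 41 cell barcodes per pair. Levels are CPM (UMIs per 1000000 UMIs of a class), with S100a8, S100a9, mitochondrial, ribosomal protein and hemoglobin transcripts taken out of the total, because these made up 37.6% of WT but 25.1% of KO UMIs in immature neutrophil-like cells.

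In WT bone marrow the level of Anxa1 was highest in immature neutrophil-like cells, at 4670 CPM. Mature neutrophil-like cells followed at 1652, macrophage-like cells at 1582, basophil or mast-like cells at 1287 and granulocyte progenitor-like cells at 737. Anxa1 was lowest in B-like cells, at 78.1, which is 59.8 times lower than the top. The KO library had the same class at each end, with 5766 in immature neutrophil-like and 124 in B-like cells. If S100a9 UMIs are read as free neutrophil RNA, as described below, it accounts for 67.3% of the WT Anxa1 UMIs of B-like cells. In KO B-like cells it accounts for 72.1%. The low end of the order is read with that limit. Anxa11, whose product has a long proline-rich tail, also peaked in neutrophils: immature and mature neutrophil-like cells had 382 and 380 CPM in WT marrow, with overlapping intervals, and erythroid-like cells were lowest at 31.7. Over the 11 steps between neighbouring classes of the WT marrow order, 7 steps for Anxa1 and 9 for Anxa11 joined classes whose intervals overlap.

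Anxa2, which joins S100A10 in a tetramer at the plasma membrane, was highest in mature neutrophil-like cells (1654 CPM in WT marrow) and lowest in B precursor-like cells (27.6). In the tumor libraries, which were scaled on their own, Anxa2 was spread over nearly all classes. WT tumor levels ran from 330 in plasmacytoid dendritic-like cells to 1474 in the joint class of monocyte-like or macrophage-like cells, and NK-like cells had 1412. Anxa5 went with the monocytic cells in both tissues, at 447 CPM in WT marrow monocyte-like cells and 643 in WT tumor monocyte-like or macrophage-like cells. It was also high in stromal or carcinoma-like cells that came through the CD45 sort, at 752. Mature neutrophil-like cells had the lowest Anxa5 of the WT tumor, at 92.3.

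Anxa6, the family member with a doubled core, was highest in NK and T cells. WT marrow NK-like or T-like cells had 558 CPM, basophil or mast-like cells 299 and plasmacytoid dendritic-like cells 239. Monocyte-like cells had 171, B-like cells 149 and B precursor-like cells 80.3, against 14.8 in immature neutrophil-like and 10.2 in erythroid-like cells. In WT tumor T-like cells led with 386, followed by NK-like and conventional dendritic 1-like cells at 284 each, whose intervals overlap. Anxa3 marked early neutrophils, with 390 CPM in granulocyte progenitor-like and 379 in immature neutrophil-like cells of WT marrow. In the tumor it marked migratory dendritic-like cells, at 499 in WT and 520 in KO, against 106.8 in the next class of WT.

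Anxa4 was scarce in bone marrow, where all 11 steps of the WT order joined overlapping intervals and neutrophil classes had 2.28 to 4.36 CPM. It was higher in tumor myeloid cells, with 168 CPM in migratory dendritic-like and 124 in monocyte-like or macrophage-like cells of the WT library. Anxa7 varied least among WT marrow classes. Its highest level there, 170 CPM in plasmacytoid dendritic-like cells, was 4.25 times its lowest, 39.9 in mature neutrophil-like cells, while this factor was 12 to 59.9 for the other 7 genes. The remaining annexin genes were nearly silent: Anxa8, Anxa10 and Anxa13 had at most 9 UMIs in any library that lists them, and Anxa9 had 58 to 215.

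**Figure D1:**
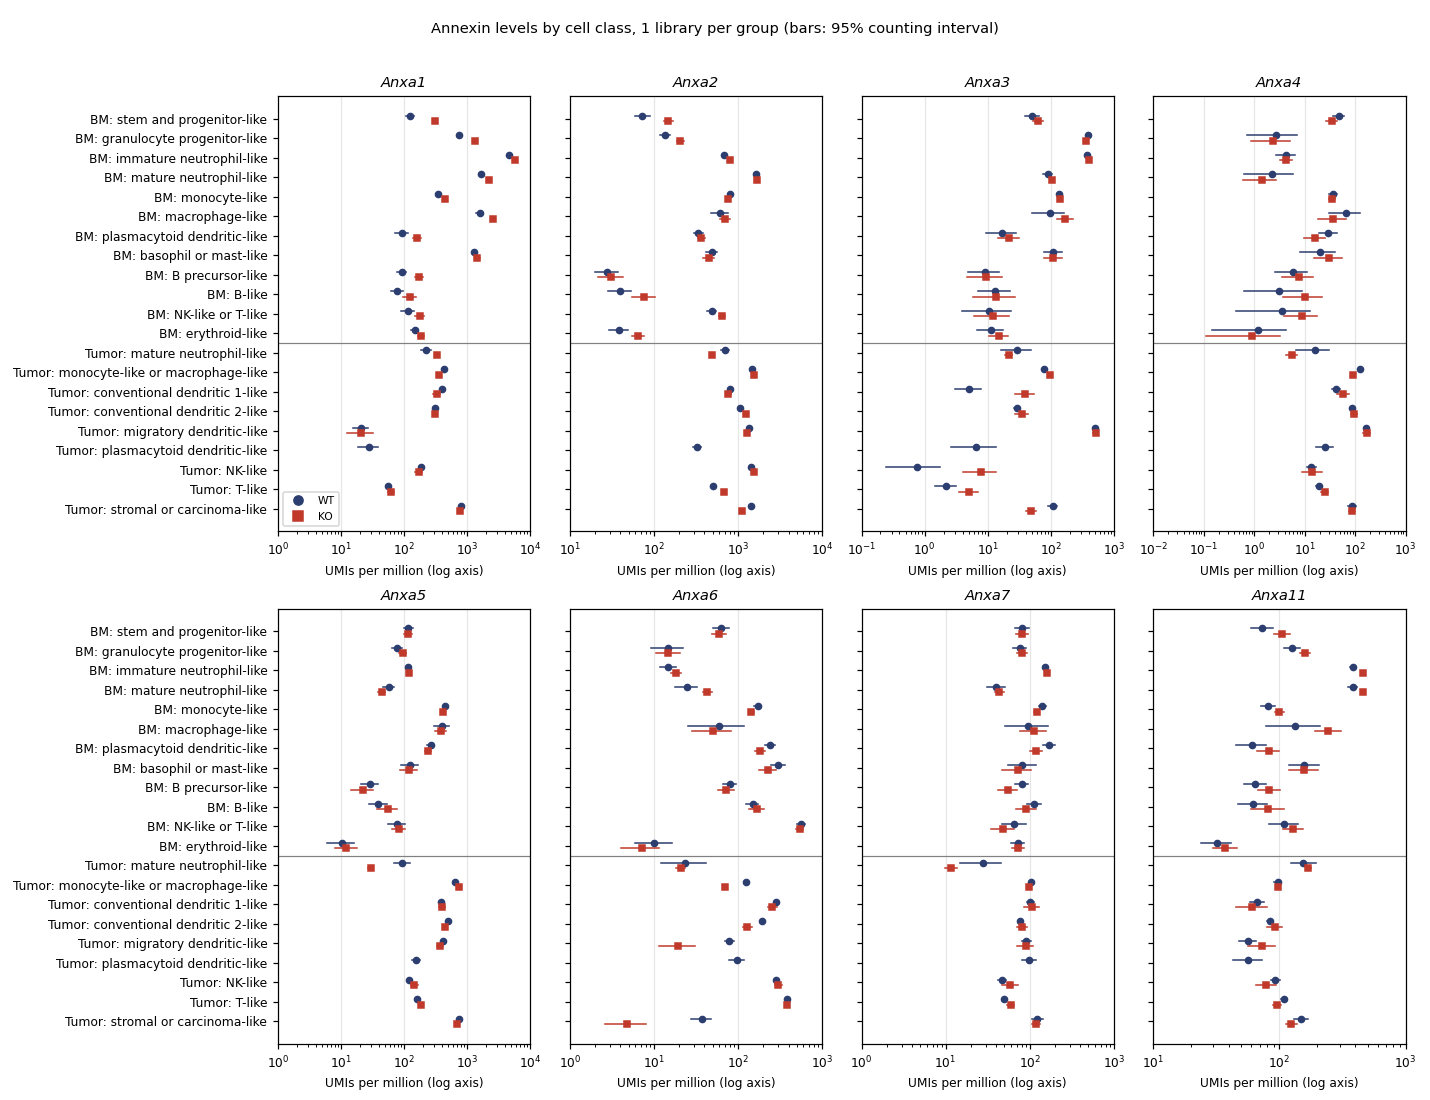
Level of each annexin in each cell class, in CPM of the class on a log axis, for WT (blue circles) and KO (red squares) libraries of bone marrow (BM, above the line) and tumor (below it); bars are 95% counting intervals and classes with fewer than 50 cells in a library are not drawn. Anxa1 peaks in marrow neutrophils (4670 in WT immature cells), Anxa6 in NK-like or T-like cells (558 in WT marrow NK-like or T-like cells) and Anxa3 in tumor migratory dendritic-like cells (499 in WT).

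The annexins followed different courses through neutrophil maturation in marrow. From granulocyte progenitor-like cells to immature and then mature neutrophil-like cells, WT Anxa1 went from 737 to 4670 and down to 1652 CPM. Anxa2 rose at each step, from 136 to 679 to 1654. Anxa3 was level at 390 and 379 and then dropped to 89.4. Anxa7, with 76.2, 153 and 39.9, and Anxa5, with 78.2, 117 and 56.9, peaked in the immature class like Anxa1. KO values were in the same order for Anxa1 (1344, 5766 and 2207), Anxa2 (207, 809 and 1692) and Anxa3 (367, 401 and 104), except that KO Anxa3 was slightly higher in immature than in progenitor cells.

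Finer clusters showed where the courses turn. Anxa1 was highest in cluster 10 of the immature cells, at 6191 CPM in WT and 7499.6 in KO, and lowest of the 8 neutrophil clusters in mature cluster 1, at 613 and 907. Anxa6 stood at 4.61 to 32.6 CPM over the other KO neutrophil clusters, but reached 149 in KO and 135 in WT mature cluster 1. Over the 3 stages each gene peaked in the same class in both libraries except Anxa3, as given above, and Anxa11, whose immature and mature levels overlap.

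**Figure D2:**
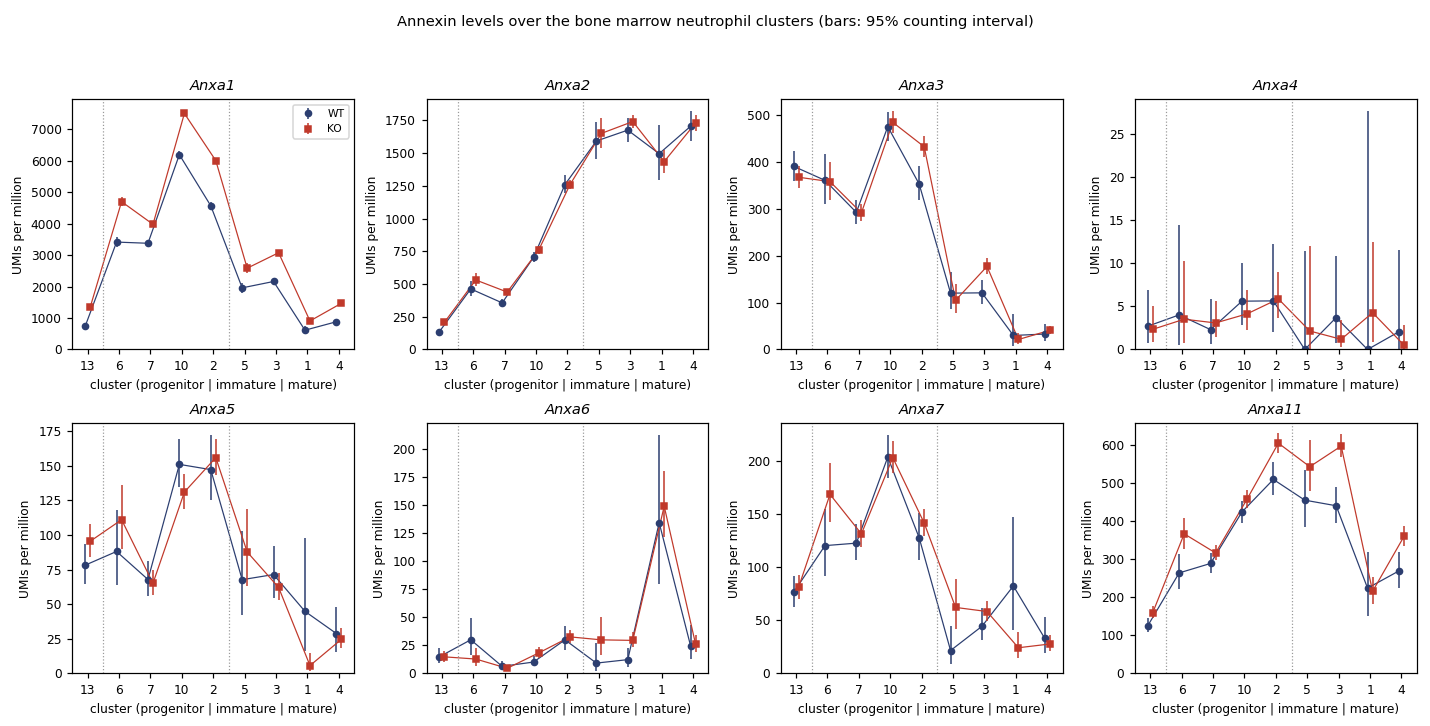
Annexin levels (CPM, linear axis from 0) in the granulocyte progenitor-like cluster 13, the immature clusters 6, 7, 10 and 2 and the mature clusters 5, 3, 1 and 4 of bone marrow, in WT (circles) and KO (squares); bars are 95% counting intervals, and clusters are ordered by marker sums that hold no annexin. The KO line of Anxa1 lies above the WT line in all 9 clusters, while those of Anxa2 nearly coincide over the mature clusters.

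Between genotypes, 67 of the 80 pairs of an annexin and a marrow class had at least 50 UMIs over both libraries, and 11 of these 67 were at least 1.5-fold higher in KO (16.4%), against 4.88% of all gene and class pairs. None was at least 1.5-fold lower, against 5.07% of all pairs. The 11 pairs were 6 of Anxa1, 4 of Anxa2 and 1 of Anxa6. In the classes of the Anxa1 and Anxa2 pairs, the share of all genes at least 1.5-fold higher was 10.3% in B precursor-like, 5% in B-like, 5.63% in NK-like or T-like, 2.67% in erythroid-like, 3.27% in granulocyte progenitor-like, 6.14% in plasmacytoid dendritic-like and 3.88% in stem and progenitor-like cells. With free neutrophil RNA subtracted in the classes outside the neutrophil line, as described below, 8 of the 11 calls were kept. These include Anxa1 and Anxa2 in granulocyte progenitor-like and Anxa6 in mature neutrophil-like cells, where nothing was subtracted, so these calls could not be lost. The 3 lost were Anxa1 in stem and progenitor-like, B-like and plasmacytoid dendritic-like cells, at ratios of 1.23, 1.36 and 1.28. In the median pair the log2 ratio of KO over WT was 0.18, where the class medians of all genes lay between −0.06 and 0.03.

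Anxa1 was higher in the KO library in each of the 10 marrow classes compared, with every interval above 1. The exceptions under other settings were B-like cells, at 0.914 with doublets kept, and erythroid-like cells, at 0.227 with free neutrophil RNA subtracted. In immature neutrophil-like cells it stood at 5766 CPM in KO and 4670 in WT, a ratio of 1.23 (1.22 to 1.25). Mature neutrophil-like cells had 2207 and 1652, a ratio of 1.34 (1.28 to 1.39). Granulocyte progenitor-like cells had 1344 and 737, a ratio of 1.82 (1.70 to 1.95). The excess was seen in all 4 immature clusters, with ratios from 1.18 to 1.38, and in all 4 mature clusters, with ratios from 1.32 to 1.67. When each cell was thinned to 500 UMIs, 56.5% of KO and 47.2% of WT mature neutrophil-like cells had an Anxa1 UMI, and 91.9% against 87.4% of the immature cells. The share was 7.79% (5.10 to 11.3) and 5.70% (3.36 to 8.98) in NK-like or T-like cells, with overlapping intervals. Median depths of these cells were 3287 and 2177 UMIs.

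Outside the neutrophil line, Anxa1 stood at 308 CPM in KO and 124 in WT stem and progenitor-like cells, a ratio of 2.48 (2.08 to 2.97), and at 172 and 92.5 in B precursor-like cells, a ratio of 1.86 (1.49 to 2.32). The B precursor-like class joined cluster 12 (Vpreb1, Dntt), with 158 KO and 180 WT cells, and cluster 18 (Rag1), with 189 and 697. Its ratio ran from 1.41 to 1.92 over the alternatives. Neutrophil transcripts moved with Anxa1 in the stem and progenitor-like cells. There all 12 mature neutrophil markers were higher in KO, with a summed level of 1801 against 349 CPM. If S100a9 UMIs in these cells are read as free neutrophil RNA, they account for 66.4% of the Anxa1 UMIs in KO and 32.1% in WT. With that amount subtracted, Anxa1 remained at 104 and 84.5 CPM, a ratio of 1.23. In erythroid-like cells the same reckoning covered 95.7% of the KO and 76.1% of the WT Anxa1 UMIs. The remainder turned the direction there, with 7.96 CPM in KO against 35.0 in WT, a ratio of 0.227. In monocyte-like cells it covered 34.3% and 24.6%, and the ratio went from 1.33 to 1.16. In 2 classes the ratio did not shrink. In B precursor-like cells the reckoning covered 49.9% of the KO and 51.5% of the WT Anxa1 UMIs. That left 86.2 and 44.9 CPM, a ratio of 1.92. In NK-like or T-like cells it covered 48.8% and 67.4%. Levels there went from 177 and 114 CPM to 90.7 and 37.1, a ratio of 2.44. The reckoning counts every S100a9 UMI of a class as free RNA, so it covers too much wherever the cells make S100a9 themselves. In granulocyte progenitor-like cells 8 of 12 mature neutrophil markers were higher in KO, with a summed level of 1773 against 1195. Leaving out cells with late neutrophil UMIs, a step chosen after seeing the data, left 12 KO and 41 WT cells there, with an Anxa1 ratio of 3.27 (2.34 to 4.57).

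Anxa11 was higher in KO in all 10 marrow classes as well, with ratios from 1.17 to 1.44, none reaching 1.5-fold. With free neutrophil RNA subtracted it turned in erythroid-like cells, to 19.2 in KO and 20.9 CPM in WT, a ratio of 0.921. Immature neutrophil-like cells had 457 and 382 CPM, a ratio of 1.2 (1.14 to 1.26), and mature cells 464 and 380, a ratio of 1.22 (1.12 to 1.33). The interval lay above 1 in 5 of the 10 classes. Stem and progenitor-like cells had 105 against 73.1 CPM, a ratio of 1.44 (1.12 to 1.86), beside 2.48 for Anxa1. After the subtraction the ratios of Anxa11 and Anxa1 there were 1.22 and 1.23.

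Anxa2 passed 1.5-fold in stem and progenitor-like cells, at 149 in KO and 73.1 CPM in WT, a ratio of 2.03 (1.60 to 2.59). It did so too in granulocyte progenitor-like cells (207 and 136, ratio 1.52, 1.29 to 1.80), in B-like cells on 44 and 39 UMIs, and in erythroid-like cells on 144 and 64 UMIs. In mature neutrophil-like cells, where Anxa2 is highest, the ratio was 1.02 (0.981 to 1.07). After subtraction of free neutrophil RNA Anxa2 in stem and progenitor-like cells still had a ratio of 1.55. Anxa6 in mature neutrophil-like cells rested on 246 and 43 UMIs, at 43.2 against 24.5 CPM, a ratio of 1.76 (1.27 to 2.50). Of all genes measured in the class, 7.46% were past the same fold. Within the mature clusters the Anxa6 ratio was 1.11 (0.668 to 1.94) in cluster 1, where the level is highest, and 1.06 (0.558 to 2.18) in cluster 4. It was 2.40 (1.23 to 5.2) in cluster 3, on 75 and 10 UMIs, where 9.46% of genes were past the fold.

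Anxa3, Anxa4, Anxa5 and Anxa7 had no marrow class past 1.5-fold. Anxa5 in mature neutrophil-like cells stood at 44.2 in KO and 56.9 CPM in WT, a ratio of 0.776 (0.613 to 0.989). Anxa7 had 3 marrow classes with the interval below 1. The ratios were 0.676 (0.492 to 0.921) in B precursor-like, 0.709 (0.561 to 0.896) in plasmacytoid dendritic-like and 0.856 (0.758 to 0.967) in monocyte-like cells, the last at 121 against 141 CPM. Anxa3 in immature neutrophil-like cells differed little, at 401 and 379 CPM, a ratio of 1.06 (1.00 to 1.12).

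**Figure D3:**
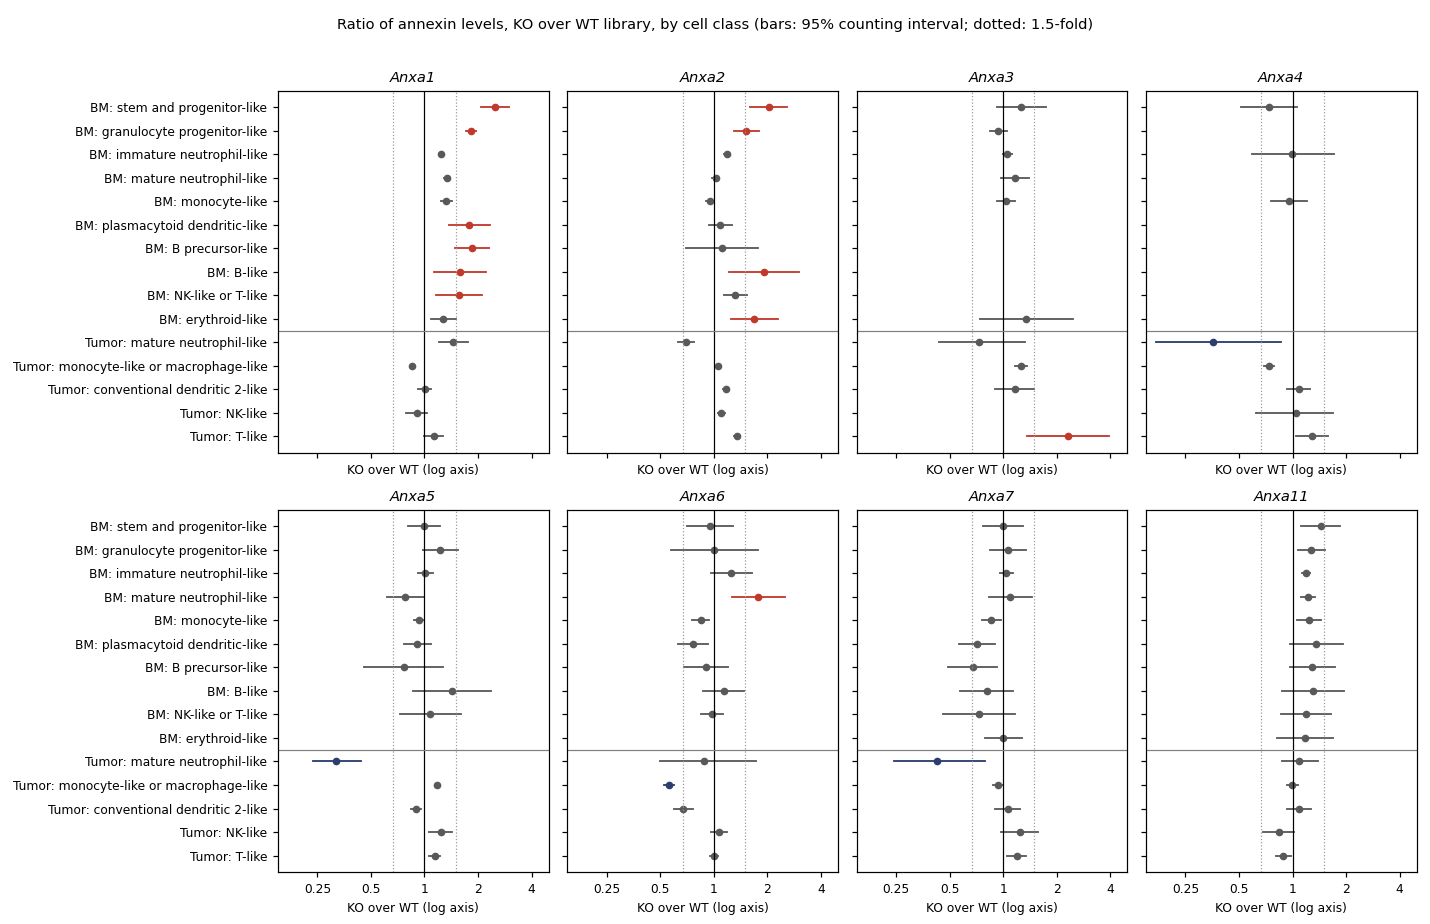
Ratio of the KO over the WT level of each annexin (log axis) in the 10 bone marrow and 5 tumor classes compared; bars are 95% counting intervals, dotted lines mark 1.5-fold, red and blue points lie at least 1.5-fold above or below 1, and pairs with fewer than 50 UMIs are left out. Every Anxa1 and Anxa11 point of the marrow lies above 1, and the lowest tumor points are those of Anxa4, Anxa5 and Anxa7 in mature neutrophil-like cells (0.356, 0.319 and 0.422).

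In tumors the counts past 1.5-fold gave another picture. Of 39 annexin and class pairs with at least 50 UMIs, 1 was at least 1.5-fold higher in KO (2.56%, against 7.50% of all pairs) and 4 at least 1.5-fold lower (10.3%, against 15.3% of all pairs), both shares under the background. In the median tumor pair the log2 ratio of KO over WT was 0.08, where the class medians of all genes lay between −0.37 and −0.004. The annexin median was below that of all genes only in mature neutrophil-like cells, at −0.48 beside −0.37. The mature neutrophil-like class, with 3105 KO but 221 WT cells, held 3 of the 4. There Anxa5 stood at 29.4 CPM in KO and 92.3 in WT, a ratio of 0.319 (0.235 to 0.442). Anxa7 stood at 11.6 and 27.5, a ratio of 0.422 (0.244 to 0.792), on 14 WT UMIs, and Anxa4 at 5.60 and 15.7, a ratio of 0.356 (0.171 to 0.859), on 8 WT UMIs. In this class 38.7% of all genes measured were at least 1.5-fold lower and the median log2 ratio was −0.37.

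Of the other 5 annexins of tumor neutrophils, 3 were lower and 2 higher in KO, none past 1.5-fold. Anxa1 was higher, at 329 in KO and 226 CPM in WT, a ratio of 1.46 (1.21 to 1.77), and Anxa11 had 170 and 155, a ratio of 1.09 (0.87 to 1.39). Anxa2 stood at 491 and 705, a ratio of 0.696 (0.626 to 0.776). Anxa3 had 21.7 and 29.5, a ratio of 0.735 (0.438 to 1.33), and Anxa6 20.8 and 23.6, a ratio of 0.884 (0.497 to 1.73), both with intervals that include 1. Within cluster 11 Anxa5 had a ratio of 0.399 (0.270 to 0.613), and within cluster 12, with 61 WT cells, 0.201 (0.122 to 0.346), where 32.9% and 36.1% of genes measured in these clusters were past the same fold. Markers of other cells differed between these libraries. The 10 monocyte markers summed to 549 CPM in KO and 1312 in WT with 7 lower in KO, the 11 T cell markers to 26.3 and 322 with 10 lower, and the 11 macrophage markers to 1472 and 1403 with 9 lower. Cx3cr1 of the monocyte list and Foxp3 of the T cell list were at 0 in WT. The part of the T cell markers in the result was not tested. After cells with any UMI of 11 monocyte or macrophage genes were left out, a step chosen after seeing the data, 1336 KO and 128 WT cells gave an Anxa5 ratio of 0.295 (0.186 to 0.490), an Anxa7 ratio of 0.301 (0.151 to 0.665) and an Anxa2 ratio of 0.605 (0.522 to 0.704), the last now past 1.5-fold. With finer clusters a group of 526 KO and 2 WT cells led by Cxcl1 and Serpinb2 joined the class and the ratios of Anxa4, Anxa5 and Anxa7 turned to 1.95, 2.02 and 1.08, and that of Anxa2 to 1.11. Without the clusters of fewer than 50 WT cells Anxa5 was again at 0.280 (0.195 to 0.409), while Anxa7 was at 0.679 (0.337 to 1.55). In that setting, also chosen after seeing the data, Anxa2 was at 0.920 (0.815 to 1.04), an interval that includes 1. Anxa1 was then past 1.5-fold, at 2.00 (1.65 to 2.45).

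Monocyte-like or macrophage-like tumor cells, 4329 in KO and 1455 in WT, held the fourth pair: Anxa6 stood at 69.4 CPM in KO and 124 in WT, a ratio of 0.560 (0.524 to 0.599), where 21.5% of genes measured in the class were at least 1.5-fold lower. After thinning to 1500 UMIs, 9.61% of KO and 14.8% of WT cells had an Anxa6 UMI, against 41.1% and 42.1% of T-like cells. Different clusters filled the class in the 2 libraries, cluster 14 (Cxcl1, Thbs1) with 1734 KO and 95 WT cells and cluster 7 (Irf7, Ly6c2) with 264 and 625. The mature neutrophil marker sum in the class was 43035 CPM in KO and 16525 in WT, and its part in the result was not tested.

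Cluster by cluster, Anxa6 was lower in KO in 4 of the 5, most in cluster 7, at 74.4 against 170 CPM, a ratio of 0.438 (0.368 to 0.519), where 20.5% of genes measured in that cluster were past the same fold. In cluster 0 (Chil3, Vcan) it was equal, at 106 and 105. Migratory dendritic-like cells outside this class, 86 in KO and 321 in WT, had 19.6 and 79.4 CPM, a ratio of 0.247 (0.144 to 0.399), where 12.9% of genes measured were past the same fold. Conventional dendritic 2-like cells had 130 and 192, a ratio of 0.674 (0.595 to 0.761). T-like and NK-like cells, where Anxa6 is highest, had ratios of 1.00 (0.955 to 1.05) and 1.07 (0.963 to 1.18). Outside the leukocytes, stromal or carcinoma-like cells had 4.75 CPM in 137 KO and 36.9 in 77 WT cells, on 14 and 57 UMIs, with intervals that do not overlap. In their cluster 21 alone, with 69 of the WT cells, Anxa6 had 14 and 25 UMIs, too few to be called. No class was tested against another.

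Anxa1 in the same tumor class had a ratio of 0.855 (0.826 to 0.885) that hid opposite clusters. Relative to the class median of all genes, a log2 ratio of −0.23, Anxa1 was at 1.00. In cluster 0 it stood at 534 in KO and 310 CPM in WT, a ratio of 1.72 (1.59 to 1.87), where 7.46% of genes measured were past the same fold. In the Arg1 and Mmp12 cluster 3 it stood at 295 and 808, a ratio of 0.365 (0.333 to 0.399). In cluster 3, with 598 KO and 128 WT cells, 27.9% of all genes measured were at least 1.5-fold lower. Anxa4 was lower in KO in 4 of the 5 clusters, with 92.5 against 188 CPM in cluster 3 and 134 against 199 in the C1qa cluster 1. Anxa5 differed less, with ratios from 0.836 to 1.23 over the 5 clusters, and Anxa2 had a class ratio of 1.06 (1.04 to 1.08). Anxa3 was higher in KO in cluster 7, at 75.3 against 36.0 CPM, a ratio of 2.09 (1.67 to 2.62), where 7.73% of genes measured were past the same fold.

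**Figure D4:**
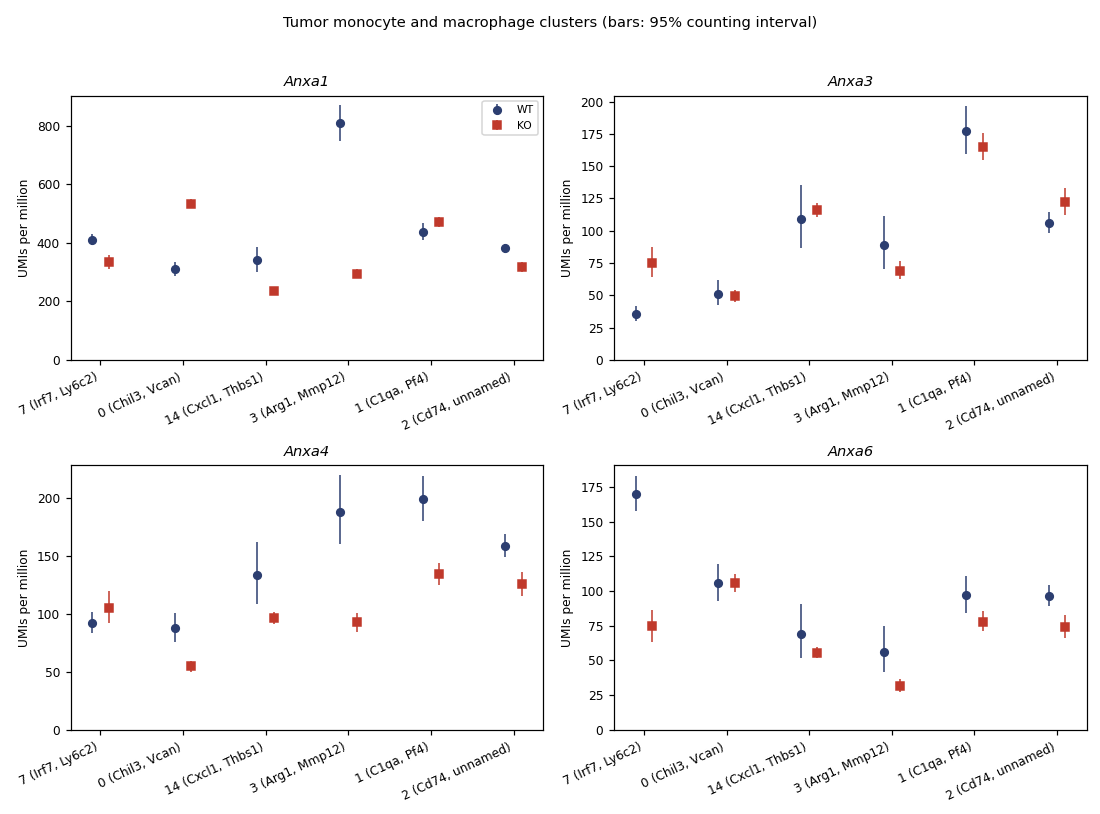
Levels (CPM, linear axis from 0) of Anxa1, Anxa3, Anxa4 and Anxa6 in 6 tumor myeloid clusters, named by number and leading genes, in WT (circles) and KO (squares); bars are 95% counting intervals. Anxa1 is higher in KO in cluster 0 (534 against 310) and lower in cluster 3 (295 against 808), and Anxa6 is lower in KO cluster 7 (74.4 against 170).

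The pair higher in the KO tumor was Anxa3 in T-like cells, on 32 and 30 UMIs, at 5.07 and 2.20 CPM, a ratio of 2.31 (1.36 to 3.93), where 6.96% of genes measured in the class were past the same fold. These are levels far under the 520 of KO migratory dendritic-like cells. In T-like cells Anxa2 stood at 683 in KO and 505 CPM in WT, a ratio of 1.35 (1.30 to 1.40), and was above 1 in 5 of the 6 T-like clusters. In conventional dendritic 1-like cells, with only 58 KO cells, Anxa3 had 39.1 against 5.04 CPM, a ratio of 7.76 (4.26 to 14.6), where 9.41% of genes measured were at least 1.5-fold higher. In stromal or carcinoma-like cluster 21, 137 KO and 69 WT cells, it stood at 48.9 and 111, a ratio of 0.440 (0.349 to 0.555), where 7.23% of genes measured were at least 1.5-fold lower.

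The S100 partners were followed next. S100a10, the annexin A2 partner, was low in marrow neutrophils and lower in KO: 4.69 and 11.6 CPM in immature cells (ratio 0.405, 0.274 to 0.596) and 7.19 and 15.9 in mature cells (ratio 0.451, 0.272 to 0.757). At least 1.5-fold lower were 6.34% and 8.80% of genes measured in these classes. In tumor mature neutrophil-like cells it stood at 67.5 and 242, a ratio of 0.279 (0.231 to 0.340), with Ahnak, a large scaffold bound by the annexin A2 and S100A10 complex, at 41.3 and 118, a ratio of 0.35 (0.268 to 0.466). S100a4 there had 66.5 and 228, a ratio of 0.292 (0.240 to 0.358). All 3 lie among the 38.7% of genes of that class past the same fold.

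S100a11, the annexin A1 partner, differed little in marrow neutrophils, with ratios of 1.12 (1.10 to 1.15) in immature and 0.984 (0.961 to 1.01) in mature cells. It was higher in KO tumor monocyte-like or macrophage-like cells, at 3513 and 2167 CPM, a ratio of 1.62 (1.60 to 1.64), and conventional dendritic 2-like cells, with a ratio of 1.56 (1.53 to 1.59), where 6.1% of genes measured were past the same fold. S100a6, a partner of annexin A11 and a neighbour of S100a8 on chromosome 3, was above 1 in all 15 classes. In immature neutrophil-like cells its level was 22860.5 CPM in KO against 4790 in WT, a ratio of 4.77 (4.71 to 4.84), where 2.47% of genes measured were at least 1.5-fold higher. It stood at 46447 and 20509 in mature ones, a ratio of 2.26 (2.24 to 2.29). The EF-hand partners Sri, which encodes sorcin and binds annexins A7 and A11, and Pdcd6, which binds annexins A7 and A11, had marrow ratios from 0.855 to 1.51 and from 0.962 to 1.65. In the 5 tumor classes Sri ran from 0.833 to 1.18, with 3 intervals below 1, and Pdcd6 from 0.634 to 0.912, with 5 below 1. The lowest Pdcd6 ratio was in mature neutrophil-like cells, where 38.7% of genes were at least 1.5-fold lower.

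**Figure D5:**
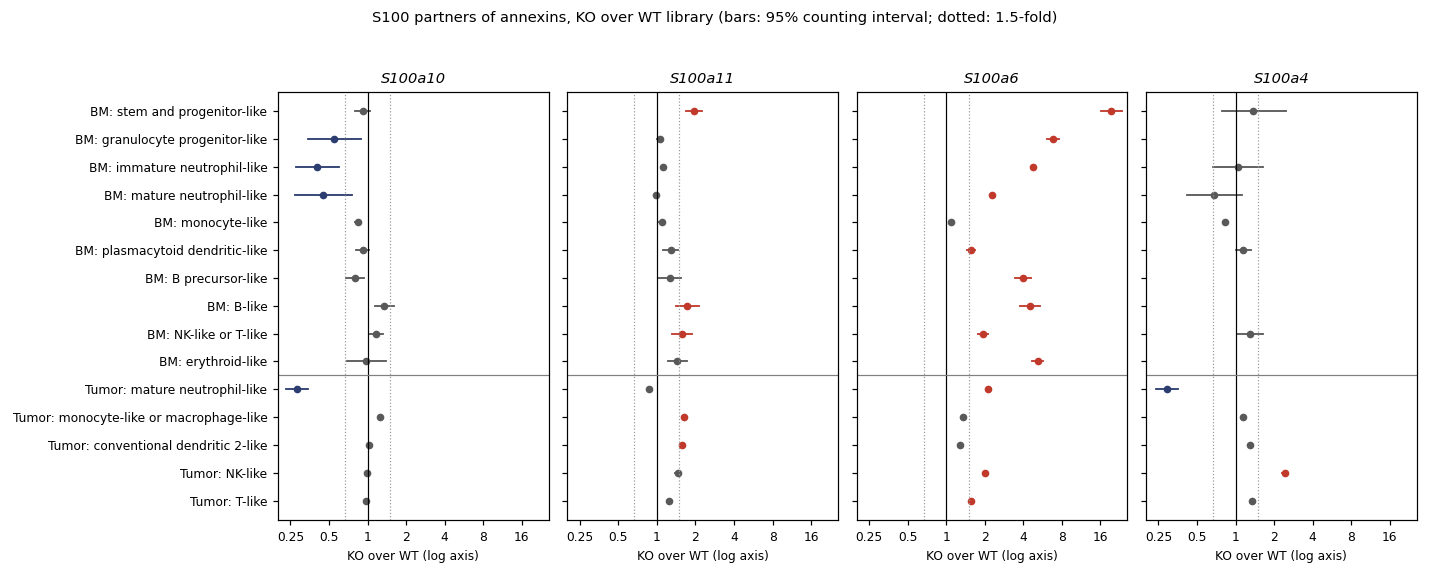
Ratio of KO over WT levels (log axis) of 4 S100 partners of annexins in the 10 marrow and 5 tumor classes compared; bars are 95% counting intervals, dotted lines mark 1.5-fold, and red and blue points lie at least 1.5-fold above or below 1. S100a10 is lowest in tumor mature neutrophil-like cells (0.279) and S100a6 is above 1 in every class.

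The receptors for annexin A1 peptides were higher in KO monocyte-like or macrophage-like cells of the tumor. In monocyte-like or macrophage-like cells Fpr1 stood at 64.0 and 5.92 CPM, a ratio of 10.8 (8.38 to 14.2), and Fpr2 at 146 and 45.2, a ratio of 3.24 (2.95 to 3.57), where 7.60% of genes measured were past the same fold. In mature neutrophil-like tumor cells neither passed 1.5-fold, with ratios of 1.25 (0.976 to 1.64) for Fpr1 and 1.01 (0.831 to 1.23) for Fpr2. Fpr2 was also higher past the fold in T-like tumor cells, at 8.08 and 0.732 CPM on 51 and 10 UMIs, and in conventional dendritic 2-like tumor cells, a ratio of 4.18 (3.12 to 5.57). In marrow it was past the fold in stem and progenitor-like cells, on 160 and 9 UMIs, and in plasmacytoid dendritic-like cells, on 55 and 5 UMIs, a ratio of 7.85 (3.17 to 25.1). It was past it as well in marrow granulocyte progenitor-like (2.75), monocyte-like (1.90) and erythroid-like cells (1.87). Genes at least 1.5-fold higher were 3.88% of those measured in stem and progenitor-like and 6.14% in plasmacytoid dendritic-like cells. They were 3.27% in granulocyte progenitor-like and 2.67% in erythroid-like cells, and 4.88% over all marrow gene and class pairs. Fpr1 and Fpr2 are also neutrophil transcripts. Marrow stem and progenitor-like cells had 19678 S100a9 UMIs in KO and 2891 in WT. The neutrophil marker sum of tumor monocyte-like or macrophage-like cells differed in the same direction, as given above. The part of neutrophil RNA in the receptor ratios was not tested. Of 7 genes for the release of annexin A1 and for lipid mediators, 2 passed 1.5-fold in tumor monocyte-like or macrophage-like cells. Ptgs2, which encodes cyclooxygenase 2, stood at 2220 and 477, a ratio of 4.66 (4.52 to 4.79), and Pla2g4a, the cytosolic phospholipase A2 that annexin A1 can inhibit, at 60.6 and 31.6, a ratio of 1.91 (1.70 to 2.16). In marrow mature neutrophil-like cells Ptgs2 was lower in KO, at 73.3 against 158, a ratio of 0.465 (0.398 to 0.543).

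Genes for phosphatidylserine exposure and uptake, the process that annexin A5 reports, had 10 of 12 members measured in tumor monocyte-like or macrophage-like cells, with 4 at least 1.5-fold lower and none higher, where 21.5% of all genes measured in the class were lower and 7.60% higher by that fold, and a median log2 ratio of −0.22 beside −0.23 for all genes. Axl, a receptor for dead cells, stood at 5.68 and 34.2 CPM, a ratio of 0.166 (0.14 to 0.197), its ligand Gas6 at 9.72 and 17.8, a ratio of 0.547 (0.458 to 0.657), and the bridging protein gene Mfge8 at 5.30 and 13.5, a ratio of 0.393 (0.315 to 0.490). The fourth, Xkr8, had a ratio of 0.615 (0.347 to 1.14), an interval that includes 1.

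Across the 19 WT classes with at least 100 cells, each annexin was set beside the genes whose log2 levels ran most like its own, as a description with no test, over classes that share 2 libraries. Anxa1 was closest to Itgam, Pgd and Hk3 (Pearson r 0.85 to 0.86), Anxa2 to Nfil3 (0.92), Anxa3 to Dstn (0.89) and Anxa4 to Tmem176a (0.88). Anxa5 was closest to Vim (0.94), Anxa6 to Nfatc2 (0.92), Anxa7 to Dnajb14 (0.82) and Anxa11 to Vasp (0.91). Within the family the nearest patterns were those of Anxa4 and Anxa5 (0.87), Anxa1 and Anxa11 (0.76) and Anxa2 and Anxa5 (0.71), and the least alike were Anxa3 and Anxa6 (−0.49).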

How the data were processed

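The authors deposited unnormalised UMI counts, from Cell Ranger 3.1.0 for bone marrow and 6.0.2 for tumor, per the file headers. Builds mm10 and GRCm38, R 4.2.1, Seurat 4.3.0 and Cell Ranger 6.1.2 are named in the submitters' processing notes. Barcodes under 200 detected genes or over 10% mitochondrial UMIs were dropped. The automatic scrublet threshold marked 0% of barcodes in 2 libraries, so the highest scores, at 0.8% per 1000 barcodes, were left out in every library. Both libraries of a tissue were clustered together (scanpy 1.11.5; 2000 variable genes, 30 components, 15 neighbours, Leiden resolution 1), with annexins and partner genes barred from the variable genes, and clusters were named from 20 marker lists; names are rebuilt, not the authors'. Counts were summed per class and library. A gene was measured with at least 50 UMIs over both libraries; classes needed 100 cells, clusters 50, in each. The call was 1.5-fold. Intervals are exact (conditional binomial for ratios, Poisson for levels, Clopper-Pearson for shares) and cover counting error only. Ratios were checked on simulated counts.

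Members, gene lists and settings were chosen with earlier results of these data known. All 8 annexins are named; of the lists, S100 partners first and then up to 3 members with the largest ratio; like genes had to reach 20 CPM in 3 classes.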

Additional observations from a re-analysis of the deposited data

How the results depend on the processing

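No paired analysis was possible because each group is 1 library. For the same reason no library could be left out. Of 1081 annexin ratios recomputed under the alternatives, 93 crossed 1. Of these, 4 were pairs past 1.5-fold, called reversed here, and 89 were pairs within 1.5-fold. In 16 of the 93 the interval of the reported ratio had lain clear of 1, among them Anxa1 in marrow erythroid-like cells, from 1.27 to 0.227 with free RNA subtracted, and Anxa2 in tumor mature neutrophil-like cells, to 1.11 at resolution 2. Of the ratios not reversed, 932 stayed within the counting interval and 145 moved out of it. The 932 include ratios that could not move. Changing the count filter only repeats the reported ratios: 67 marrow and 39 tumor ratios without a filter, 47 and 35 with at least 200 UMIs. The free RNA setting likewise leaves ratios of the neutrophil line unchanged. In bone marrow the count of 11 pairs at least 1.5-fold higher was 7 with doublets kept, when 6 of the 11 were kept, and 4 with cells thinned to 1 depth. After thinning only 33 of the 67 pairs, and 3 of the 11 calls, had enough UMIs to be measured, and 2 of these 3 calls were kept. With free RNA subtracted the count was 8, all among the 11. Nothing was subtracted within the neutrophil line, so the calls there could not be lost. The count of 0 lower became 1 when scaled to all UMIs, with at most 5% mitochondrial UMIs or with clusters weighted alike, 2 with no count filter and 3 with neutrophil free RNA subtracted. Anxa1 in marrow B-like cells reversed to 0.914 with doublets kept. In tumor the count of 1 higher became 2 when scaled to all UMIs, relative to the class median, with no count filter, with doublets kept, with at most 5% mitochondrial UMIs, as a mean over cells or with clusters weighted alike, 0 with at least 200 UMIs or cells thinned, and 3 at resolution 2. The count of 4 lower became 2 with at least 200 UMIs and 2 at resolution 2, where Anxa4, Anxa5 and Anxa7 in mature neutrophil-like cells reversed to 1.95, 2.02 and 1.08. Of the 5 tumor calls only 2 could be measured with at least 200 UMIs and 3 with cells thinned. All of those measured were kept. Anxa1 stayed above 1 under every alternative in marrow immature (1.2 to 1.48), mature (1.14 to 1.54) and granulocyte progenitor-like cells (1.46 to 3.27, the highest on 12 KO cells without late neutrophil UMIs, an alternative chosen after seeing the data). Scaling to all UMIs moved the median log2 ratio of all genes from −0.06 to 0.20 in marrow immature and from 0.01 to 0.22 in mature neutrophil-like cells, so ratios there are read relative to that shift.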
